A study of Oryza sativa Japonica Group with 17 samples.

Results

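I-motifs (iMs) are folded structures that C-rich DNA strands form through pairs of cytosines sharing 1 proton, so an acidic buffer favours them. They have been mapped in plant genomes with iMab, an antibody fragment that recognises the fold, and cytosine methylation is known to alter their stability in test-tube assays. Zebularine is a cytidine analogue that blocks DNA methyltransferases, so DNA from plants grown with it carries less 5-methylcytosine. This report describes the rice regions in which an iM peak was called in demethylated DNA at pH 5.5 and in none of the other conditions of the study. There were 15584 such regions among the 113086 union regions of 5 conditions (13.8%), and they covered 4.23 Mb.

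The regions were defined by peak presence. A common peak was a peak called against input that overlapped a peak called against IgG in the same condition by at least 1 bp. The common peaks of the 5 conditions were joined into union regions where they overlapped by at least 1 bp, and a region was kept when it held a common peak of demethylated pH 5.5 and of no other condition. Each of the 15584 regions held 1 common peak, so a region and its peak have the same borders. Of the 75913 common peaks in demethylated DNA at pH 5.5, these made up 20.5% (95% Wilson interval 20.2 to 20.8%) and 13.4% of the bases. The other 60329 common peaks lay in regions with a common peak of at least 1 other condition and are called shared peaks here.

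The study used genomic DNA of rice seedlings, refolded in vitro and immunoprecipitated (IP) with iMab. Demethylated DNA at pH 5.5 came from seedlings given 80 µM zebularine and was refolded at pH 5.5. The paper's methods describe 5-day-old seedlings given zebularine in DMSO for another 5 days, with DMSO alone as control. M.CviPI was applied to purified DNA instead. Other effects of zebularine treatment on the seedlings cannot be told apart from demethylation here. Demethylated DNA at pH 5.5 was set against hypermethylated DNA at pH 5.5, which had been treated with M.CviPI, a methyltransferase that acts on C in GpC. It was also set against demethylated DNA, hypermethylated DNA and CK at pH 7.0, where CK was DNA with unaltered methylation. The 17 libraries were 10 iMab IPs, 5 IgG controls and 2 inputs, and the 2 IP libraries of a condition had been merged before peak calling. The inputs were of hypermethylated and of demethylated DNA. No CK input was among the 17 libraries, so the control of the CK list called against input is not among them. CK at pH 5.5 was not analysed here, so whether DNA with unaltered methylation has peaks in these regions at pH 5.5 cannot be told from the lists used, and the parts of acid and of demethylation cannot be told apart by a comparison with CK.

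Every condition was 1 merged library with no replicate error, so no test between conditions was possible, and intervals cover counting error only. The rule used the peak calls of all 10 lists, so the fold, width and score values below describe the regions and support nothing about them. The depth also differed between the lists. The background coverage of the IP, solved from the fold and p-value of the peaks, was 7.99 fragments in the demethylated pH 5.5 list called against input and 4.78 in that called against IgG, for which the IP had been scaled to 0.598 of its reads. It was 9.35 in hypermethylated DNA at pH 5.5, 14.4 in demethylated and 11.4 in hypermethylated DNA at pH 7.0. In CK it was 11.2 against IgG and 6.005 against input, where the IP had been scaled to 0.489 of its reads. As an approximation, the summit reads and control levels of called peaks were scaled to a coverage of 4.78. Scaled peaks with a −log10 p-value under 2.50 were dropped, after which 16783 regions were found only in demethylated DNA at pH 5.5. Peak borders were kept and peaks missed in the lists could not return. The part of depth in the number of regions was therefore not measured. Peak width also differed between the lists. The narrowest called peak was 121 bp in demethylated and 153 bp in hypermethylated DNA at pH 5.5. It was 168 bp in CK, 199 bp in hypermethylated and 206 bp in demethylated DNA at pH 7.0. The rule rests on overlap, and the part of these widths in the number of regions was not tested.

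Demethylated DNA at pH 5.5 held more regions of its own than any other condition. Regions found in 1 condition only numbered 34556, or 30.6% of the union, and 45.1% of them were those of demethylated DNA at pH 5.5. The 15584 regions were followed by 9539 found only in hypermethylated DNA at pH 5.5, 5677 only in demethylated DNA at pH 7.0, 2841 only in hypermethylated DNA at pH 7.0 and 915 only in CK. Numbers of common peaks did not run in this order: there were 75913 in demethylated DNA at pH 5.5 and 82718 in hypermethylated DNA at pH 5.5, which had the most. As a share of its own common peaks, the 20.5% of demethylated pH 5.5 stood above 11.5% in hypermethylated pH 5.5, 7.77% in demethylated pH 7.0, 4.19% in hypermethylated pH 7.0 and 1.66% in CK. With the 50000 highest scoring common peaks of each condition, 9314 regions were found only in demethylated DNA at pH 5.5, against 4768 only in hypermethylated DNA at pH 5.5 and 3758 only in CK. With all peaks called against input, whether or not IgG gave a peak, they numbered 36386, against 9317 only in hypermethylated DNA at pH 5.5. With all peaks called against IgG the numbers were 11470 only in demethylated and 8260 only in hypermethylated DNA at pH 5.5. These orders also depend on which conditions were compared. CK was present at pH 7.0 only, so an acid condition had fewer others of its own pH to share a region with. Demethylated and hypermethylated DNA at pH 5.5 were alike in this. The part of this imbalance in the higher numbers and shares of the acid conditions was not tested.

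**Figure D1:**
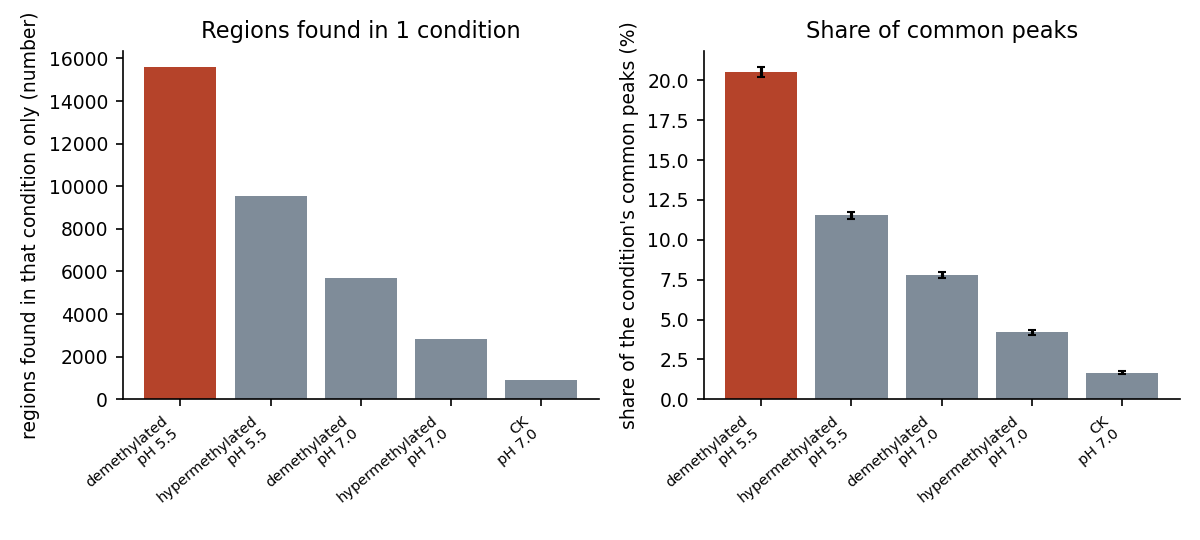
Regions found in 1 condition only (left, number of regions) and their share of the condition's own common peaks in percent (right, bars with 95% Wilson intervals). Demethylated pH 5.5 is the tallest bar in both panels, at 15584 regions and 20.5%, and CK the lowest, at 915 regions and 1.66%. No CK list of pH 5.5 was used, so the pH 5.5 bars had fewer conditions of their own pH to share regions with.

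The peaks of these regions were the lower and narrower peaks of their own list. The median fold enrichment against input, which is the ratio of IP pileup to local control level at the summit, was 3.98 (quartiles 3.23 and 4.92) in the regions found only in demethylated DNA at pH 5.5 and 5.78 (quartiles 4.34 and 7.86) in shared peaks. The fold values overlapped over most of their range, but the upper end differed, with a maximum of 14.7 in the regions and 49.8 in shared peaks. The median −log10 q-value was 12.1 in the regions and 24.99 in shared peaks. The median width was 231 bp (quartiles 185 and 313) in the regions, against 378 bp (quartiles 258 and 577) in shared peaks. The summit of a median peak held 40 IP reads in the regions, against 58 in shared peaks, over an input control level of 1.11 times background in both. The upper quartile of the control level was 1.31 times background in the regions and 1.24 times background in shared peaks.

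The list called against IgG gave the same order with smaller differences. The median fold against IgG was 3.58 in the regions and 4.43 in shared peaks, and the median −log10 q-value was 6.19 in the regions and 11.3 in shared peaks. The matching IgG-called peak was 169 bp wide at the median in the regions and 257 bp in shared peaks. Both lists placed the summit on the same base in 55.8% of the regions and in 62.3% of shared peaks. The fold was higher against input than against IgG in 67.9% of the regions, against 80.7% of shared peaks. The IgG control level at the summit was 1.18 times background at the median of the regions and 1.35 times background in shared peaks, and it exceeded 3 times background in 0.841% of the regions and 2.99% of shared peaks.

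Over the deciles of fold in the demethylated pH 5.5 common peaks, the share of peaks found in no other condition fell at every step. It was 45.9% in the lowest decile, with folds up to 3.17, then 39.6%, 33.1% and 26.6% in the next deciles, and 0.501% in the highest, with folds of at least 9.76. The highest decile held 38 of the regions among 7592 peaks. Width gave a similar slope, from 46.7% of peaks up to 181 bp to 1.94% of peaks of at least 759 bp. Against IgG the slope was less regular: the share was 27.9% in the lowest decile of fold, 31.9% in the decile above it and 2.002% in the highest.

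**Figure D2:**
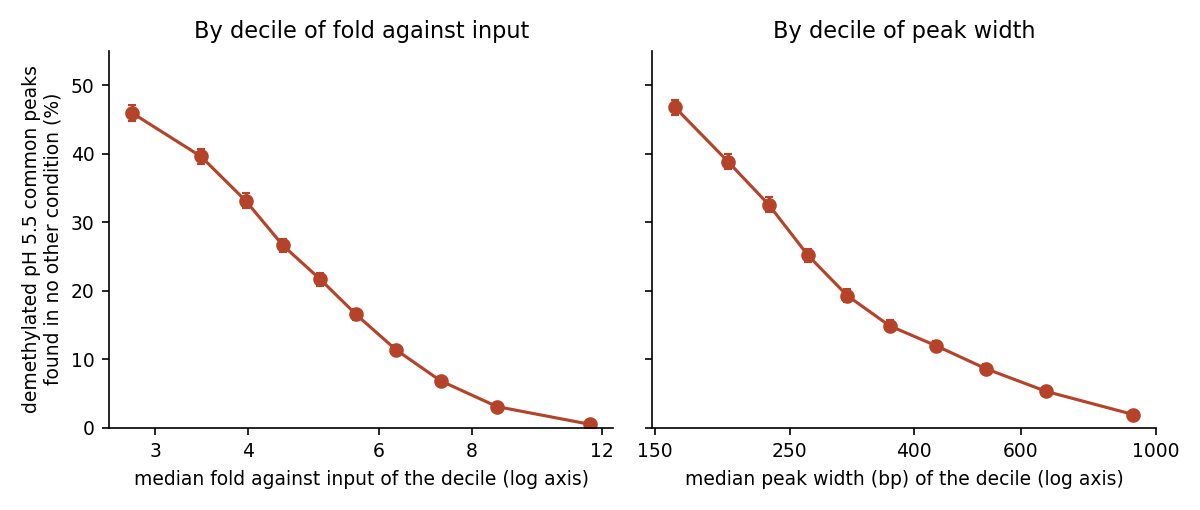
Percent of demethylated pH 5.5 common peaks that were found in no other condition, for each decile of fold against input (left) and of peak width in bp (right), both placed at the decile's median on a log axis. Points are shares with 95% Wilson intervals; the share drops from 45.9 to 0.501% over the fold deciles and from 46.7 to 1.94% over the width deciles.

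At like fold, too, demethylated DNA at pH 5.5 had a larger share of peaks of its own than the other conditions. Among common peaks with a fold of 3 to 5, 32.5% were found only there (9202 of 28343), against 12.01% in hypermethylated pH 5.5, 4.19% in hypermethylated pH 7.0, 2.83% in demethylated pH 7.0 and 1.83% in CK. Among those with a fold of 5 to 8, 12.7% were found only in demethylated DNA at pH 5.5, against 3.57% in hypermethylated pH 5.5 and 0.0135% in demethylated pH 7.0, where 2 of 14782 peaks were found in that condition only. At a fold of 8 or more, the regions numbered 249 of 14655 peaks (1.70%), against 33 of 8819 (0.374%) in hypermethylated pH 5.5. The peaks of these regions were also higher than the single-condition peaks of other lists, with a median fold of 3.98 against 3.09 in hypermethylated pH 5.5, 2.40 in demethylated pH 7.0, 2.84 in hypermethylated pH 7.0 and 3.14 in CK. The remaining common peaks of demethylated pH 5.5 were higher as well, with a median fold of 5.78. In the other conditions that median was 4.365 in hypermethylated pH 5.5, 3.82 in demethylated pH 7.0, 4.83 in hypermethylated pH 7.0 and 3.54 in CK. Higher folds were thus a trait of the whole list. A given fold rests on different read numbers at different coverage. Acid conditions also had fewer others of their own pH to share a peak with, as CK was present at pH 7.0 only. The part of coverage, of the fold level of each list and of this imbalance in these orders was not tested.

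A region could be kept although another condition had a peak there in 1 of its 2 lists. In 9806 of the 15584 regions (62.9%, interval 62.2 to 63.7%) none of the other 8 lists held a peak. A peak of the CK list called against IgG, and of no other list, lay in 2813 regions (18.1%). The remaining 2965 regions (19.0%) held a peak of at least 1 of the other lists. Peaks of 1 other list were found in 3950 regions, of 2 lists in 1423, of 3 lists in 361 and of 4 lists in 44. Most of the regions thus had no call in any other list, which the rule sets in part, as it bars common peaks of the other conditions. The same share was not taken for regions found only in another condition. Where the regions had a call, it was mostly in CK against IgG, the largest of the other 8 lists, with 94627 peaks.

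Each share is given beside that of all other union regions that lacked a common peak in the same condition. Those other regions had a common peak of at least 1 condition other than this one and were often shared between conditions, whereas the rule barred every other condition from the demethylated pH 5.5 regions. A lower share is thus in part set by the rule, and regions found only in another condition are the closer match. The CK list called against IgG had a peak in 4524 of the regions (29.0%), below the 56.2% of other regions without a CK common peak. It had a peak in 33.1% of the regions found only in hypermethylated pH 5.5, in 31.4% of those found only in demethylated pH 7.0 and in 24.3% of those found only in hypermethylated pH 7.0. The 29.0% of the demethylated pH 5.5 regions lay between these values. The CK list called against input had a peak in 2 regions (0.0128%), against 3.45% of other regions. It had one in 0.692% of the regions found only in hypermethylated pH 5.5. In those found only in demethylated and only in hypermethylated pH 7.0 the shares were 0.775% and 1.51%. For this list the CK IP had been reduced to the size of its control, and this list held 57676 peaks, against 94627 in the CK list called against IgG.

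The other 6 lists each had a peak in 2.47 to 5.19% of the regions. The demethylated pH 7.0 list called against input had a peak in 809 regions (5.19%), against 17.5% of other regions without a demethylated pH 7.0 common peak, and the one called against IgG in 588 (3.77%), against 10.6%. Hypermethylated pH 5.5 had a peak against input in 527 regions (3.38%), against 17.3% of other regions, and against IgG in 655 (4.20%), against 10.7%. Hypermethylated pH 7.0 had a peak against input in 385 regions (2.47%), against 7.47% of other regions, and against IgG in 565 (3.63%), against 7.33%. Beside regions found only in another condition, the shares were mixed. The demethylated pH 7.0 list called against input had a peak in 5.19% of the demethylated pH 5.5 regions, against 7.60% of those found only in hypermethylated pH 5.5 and 15.5% of those found only in hypermethylated pH 7.0. The hypermethylated pH 7.0 list called against IgG had one in 3.63% of the demethylated pH 5.5 regions, against 2.33% of those found only in hypermethylated pH 5.5 and 5.28% of those found only in demethylated pH 7.0. The hypermethylated pH 5.5 list called against IgG had one in 4.20% of the demethylated pH 5.5 regions, against 2.82% of those found only in hypermethylated pH 7.0 and 11.8% of those found only in demethylated pH 7.0. The demethylated pH 5.5 regions had the lowest share in every list called against input and in demethylated pH 7.0 against IgG. Hypermethylated pH 5.5 against input had a peak in 3.38%, against 10.0% (only in demethylated pH 7.0) and 21.4% (only in hypermethylated pH 7.0). Hypermethylated pH 7.0 against input lay closer, at 2.47% against 3.16% (only in hypermethylated pH 5.5) and 3.07% (only in demethylated pH 7.0). In the other lists called against IgG, a low share was not particular to the demethylated pH 5.5 regions. They were narrower than the background regions, with a median of 231 bp against 265 to 342 bp, and the part of width in these shares was not tested.

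**Figure D3:**
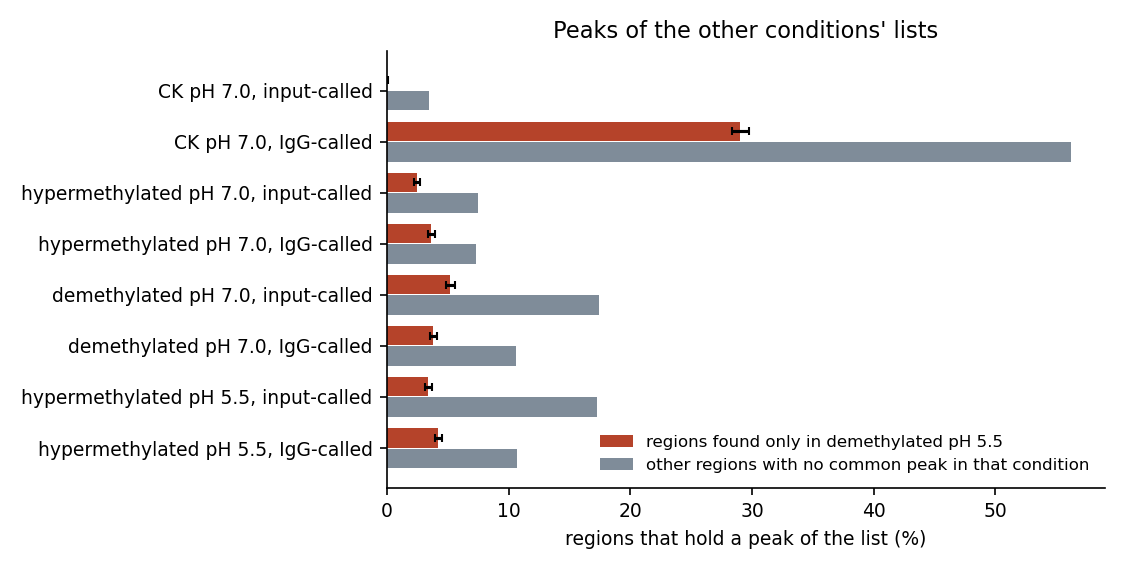
Percent of regions that hold a peak of each of the 8 lists of the other conditions, for the regions found only in demethylated pH 5.5 (upper bar of a pair, with 95% Wilson interval) and for the other union regions without a common peak in that condition (lower bar). The largest shares are those of the CK list called against IgG, at 29.0 and 56.2%. The upper bar is the shorter in all 8 pairs, which the rule sets in part.

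The regions differed in height by what the other lists held. Those with no peak in another list had a median fold of 3.78 and a median width of 223 bp. Those with a peak only in the CK list called against IgG had a median fold of 4.46 and a width of 245 bp, and the remaining ones 4.23 and 254 bp. In 5 equal groups of the regions, from low to high fold, the share with no peak in another list was 71.8%, 71.0%, 65.9%, 60.1% and 45.7%, while the share with a CK peak against IgG was 19.7%, 20.7%, 25.5%, 32.1% and 47.2%. The higher regions were thus more often ones where CK at pH 7.0 had a peak against IgG. Over all the regions, low and high, the 4547 CK peaks called against IgG had a median fold of 3.58, below the 4.27 of the rest of that list.

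The 10 regions with the highest −log10 q-values against input differed in the level of the input control. In 6 of them the input control level at the summit exceeded 3 times background, a level exceeded in 0.776% of all the regions (121) and 0.272% of shared peaks. The highest q-value stood at chr12:20472241-20472397 in the MSU v7.0 genome, with a −log10 q-value of 148, 446 IP reads and a fold of 4.75 over a control at 11.7 times background. None of the other lists had a peak there, and its fold against IgG was 11.2. The region chr12:20642973-20643163 had 414 IP reads and a fold of 3.63 over a control at 14.2 times background. Its IgG-called partner had a fold of 7.31, and CK and hypermethylated pH 7.0 both had a peak there against IgG. Likewise, chr12:13342345-13342567 had a fold of 5.61 over a control at 6.03 times background, and chr3:24191570-24191719 a fold of 6.52 over 4.42 times background. The values of chr1:7228989-7229185 were a fold of 7.30 over 3.22 times background, and those of chr12:7596172-7596317 a fold of 7.45 over 3.01 times background. These 6 summits thus lay where the input itself was piled up, and 4 of them were on chromosome 12. Before peak calling the authors had dropped reads with a mapping quality under 10 and PCR duplicates.

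The remaining 4 had an input control between 1.04 and 2.61 times background, and higher folds. The region chr2:29113439-29113868 had the highest fold of all, 14.7, from 136 IP reads over a control at 1.04 times background, and a fold of 10.3 against IgG. At chr6:26232406-26232891 the fold was 13.1 against input and 11.1 against IgG, from 128 reads. Both lay under a CK peak called against IgG. The other 2 had a raised control in both lists. The region chr3:33248030-33248209 had a fold of 8.87 over an input control at 2.61 times background. Its fold against IgG was 3.23, where the control was at 7.32 times background. The fourth, chr1:4095917-4096117, had 9.17 against input and 3.85 against IgG, over controls at 2.41 and 5.86 times background. It held a hypermethylated pH 5.5 peak called against input. Of all 10 regions, 3 held no peak of another list.

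Ranked by fold, the regions after chr2:29113439-29113868 and chr6:26232406-26232891 were chr1:27870932-27871246 with 12.7, chr2:17566746-17567111 with 12.2 and chr2:16915367-16915652 with 11.7. All 5 regions with the highest fold had an input control within 1.03 to 1.10 times background, and 109 to 136 IP reads at the summit. Among these 5, chr1:27870932-27871246 was the one with no peak in any other list, and the other 4 had a CK peak called against IgG. Its fold against IgG was 5.03, and the nearest common peak of another condition was 1.86 kb away.

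The widest regions were broad and of moderate height. The widest was chr4:26932241-26933574, at 1334 bp with a fold of 4.60, followed by chr11:8272411-8273713 at 1303 bp, chr6:1414604-1415891 at 1288 bp, chr9:9366827-9368100 at 1274 bp and chr9:9517734-9519003 at 1270 bp. Their folds were between 4.08 and 6.72 from 44 to 61 summit reads. The region chr6:1414604-1415891 held no peak of another list, and a common peak of another condition lay 26 bp from its border.

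At the lower edge of the caller's threshold, the regions were of low fold over a raised control. The lowest −log10 q-value was 1.33, at chr7:3833173-3833445, with a fold of 1.54 from 34 reads over a control at 2.71 times background. The next were chr5:11467595-11467760 with a fold of 1.62, and chr1:5380846-5381008, chr2:18983620-18983856 and chr4:32668979-32669156 with 1.66 each, from 26 to 28 reads. On the other side of the rule, 46033 peaks called against input in demethylated DNA at pH 5.5 had no IgG-called partner, and 23631 of these overlapped no common peak of another condition. Their median fold was 2.78, their median −log10 q-value 5.17, their width 161 bp and their summit 27 reads. At the other border of the rule, 14 shared peaks overlapped another condition by 10 bp or less, and 24 of the regions lay less than 10 bp from a common peak of another condition.

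The regions were spread over all 12 chromosomes, and their share of the peaks was not even. On chromosome 3, 24.4% of the demethylated pH 5.5 common peaks (1890 of 7758, interval 23.4 to 25.3%) were found in no other condition, the highest share, and on chromosome 12 the lowest, 16.4% (902 of 5494, interval 15.5 to 17.4%). The ratio of both was 1.48. Chromosomes 1 and 2 followed chromosome 3 with 23.6% and 22.1%, and the remaining 9 lay between 16.4% and 20.3%, many of them within each other's intervals. The mean over chromosomes was 20.2 ± 2.25% (SD, n = 12 chromosomes, which are not replicates). In density, the regions numbered 51.9 per Mb on chromosome 3 and 32.8 per Mb on chromosome 12, while all common peaks of demethylated pH 5.5 varied less, between 187 and 213 per Mb. The median fold of these common peaks was between 5.17 and 5.35 on the 12 chromosomes. Among peaks with a fold below the median of all demethylated pH 5.5 common peaks, the share of the regions was 39.9% on chromosome 3 and 27.1% on chromosome 12, so the order held among low peaks.

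Regions found only in hypermethylated DNA at pH 5.5 had a flatter profile. They made up 12.3% of that condition's common peaks on chromosome 3 and 10.4% on chromosome 12, which were again the highest and the lowest, with a ratio of 1.18.

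**Figure D4:**
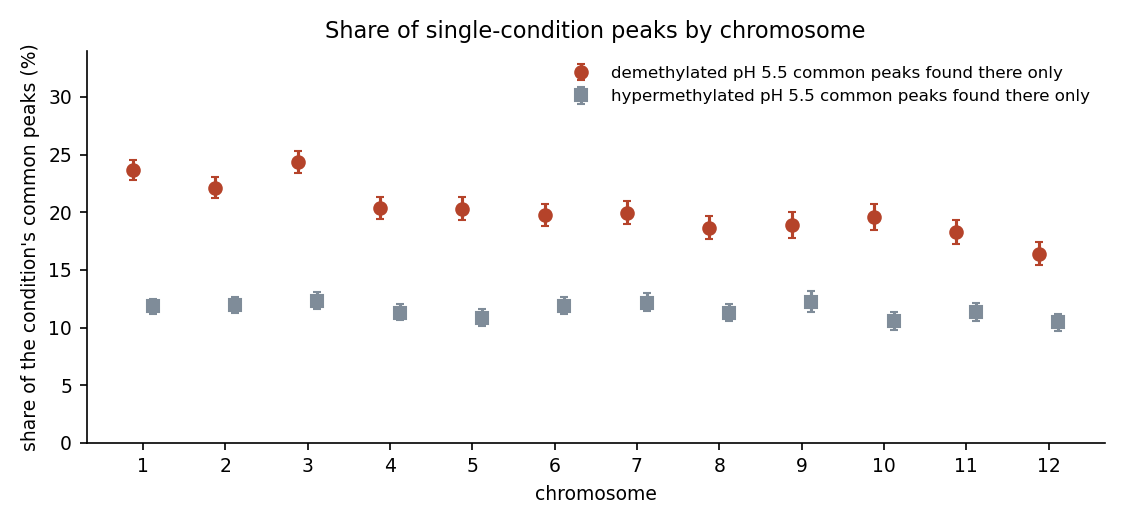
Percent of a condition's common peaks that were found in that condition only, for each of the 12 chromosomes, in demethylated pH 5.5 (circles) and hypermethylated pH 5.5 (squares), with 95% Wilson intervals. Demethylated pH 5.5 runs from 24.4% on chromosome 3 to 16.4% on chromosome 12, and hypermethylated pH 5.5 from 12.3 to 10.4% on the same chromosomes.

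Along the chromosomes, the regions took a larger share of peaks toward the ends. Within 2 Mb of the nearer end, 23.1% of demethylated pH 5.5 common peaks (2272 of 9851) were found in no other condition. The share was 22.3% at 2 to 6 Mb, 20.5% at 6 to 10 Mb, 17.9% at 10 to 14 Mb and 19.3% farther in, where 9 chromosomes contributed. The outer 2 Mb had a higher share than the part beyond 10 Mb on 12 of 12 chromosomes, by 2.75 to 7.58 percentage points. Over all chromosomes the difference was 4.66 percentage points (interval 3.71 to 5.61), and 2.87 for the regions with no peak in any other list. The median fold of the common peaks differed little between these zones, at 5.25 to 5.34. Among peaks below the median fold the shares were 37.0% in the outer 2 Mb and 29.1% at 10 to 14 Mb. For regions found only in hypermethylated DNA at pH 5.5, the shares were 12.2%, 12.2%, 10.9%, 11.3% and 11.6% from the outer to the inner zone. The position of centromeres is not part of the lists, so distance from the end is the only axis used here, and gene density or repeat content along it was not analysed here.

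**Figure D5:**
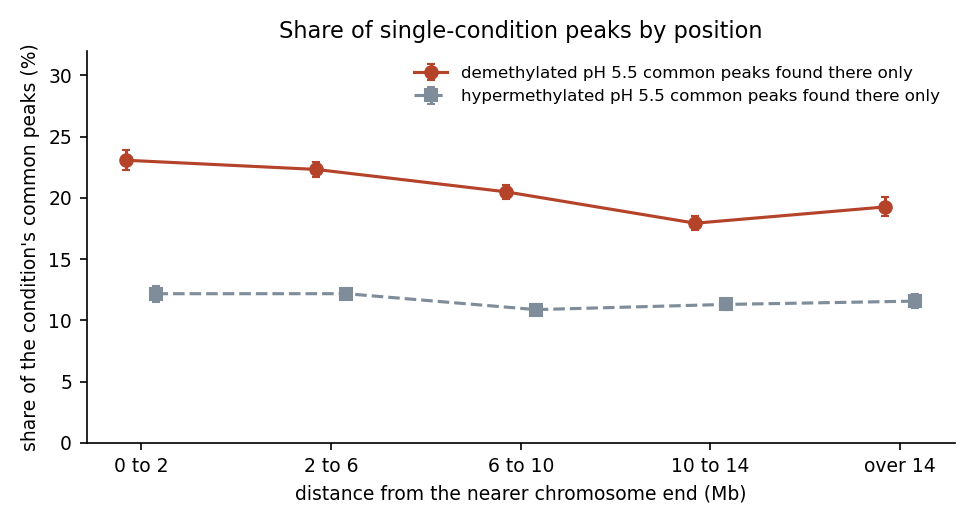
Percent of a condition's common peaks that were found in that condition only, by distance of the summit from the nearer chromosome end in Mb, in demethylated pH 5.5 (circles, solid line) and hypermethylated pH 5.5 (squares, dashed line), with 95% Wilson intervals. Demethylated pH 5.5 stands at 23.1% in the outer 2 Mb and 17.9% at 10 to 14 Mb, and hypermethylated pH 5.5 stays between 10.9 and 12.2%.

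In windows of 1 Mb the spread was wider. Over 378 windows with at least 50 common peaks, the regions made up 3.74 to 35.8% of the peaks, with a median of 20.2%, a 10th percentile of 13.7% and a 90th percentile of 27.8%. The window with the most regions was at 9 to 10 Mb of chromosome 3, where they were 81 of 226 peaks (35.8%, interval 29.9 to 42.3%). It was followed by 20 to 21 Mb of chromosome 4 with 78 of 228, 23 to 24 Mb of chromosome 7 with 76 of 260, 1 to 2 Mb of chromosome 1 with 71 of 235, and 20 to 21 Mb of chromosome 10 with 71 of 252. The poorest was at 12 to 13 Mb of chromosome 11, with 4 of 107 peaks (3.74%, interval 1.46 to 9.22%), and the next was at 10 to 11 Mb of chromosome 5, with 17 of 233 (7.30%). The median fold of all demethylated pH 5.5 common peaks was 5.10 in the richest window and 5.34 in the poorest. The window at 20 to 21 Mb of chromosome 12 had the lowest median fold of the 378 windows, 3.96, and the regions made up 27.7% of its peaks (53 of 191). In the windows on either side they made up 10.5% and 15.5%, at median folds of 5.61 and 5.38. The regions chr12:20472241-20472397 and chr12:20642973-20643163 lay in it. The part of peak height in the spread over windows was not tested.

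The distance from the regions to the peaks of other conditions was close to that of other single-condition regions. The nearest common peak of any other condition was 1143 bp away at the median, within 500 bp for 25.7%, within 1 kb for 45.7% and within 5 kb for 93.4% of the regions, and at most 21.2 kb away. By condition, the median distance was 1661.5 bp to hypermethylated pH 5.5, 1780 bp to demethylated pH 7.0, 1897.5 bp to hypermethylated pH 7.0 and 2770 bp to CK, which had the fewest common peaks. Regions found only in hypermethylated pH 5.5 lay 1041 bp, and those found only in demethylated pH 7.0 lay 1011 bp, from the nearest peak of another condition. How far these distances follow from the density of peaks alone was not tested.

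The nearest other region of the set was 6918.5 bp away at the median, and the nearest shared peak of demethylated pH 5.5 was 1960.5 bp away. In the order of union regions along the genome, 67.5% of the regions had a region of another kind on both sides, 23.3% stood in pairs and 6.72% in rows of 3, beside their share of 13.8% of all union regions. The longest row held 7 of them, at chr8:25548474-25567633, over 19.2 kb. Of the 3739 windows of 100 kb in the genome, 96.3% held at least 1 of the regions. The densest of these windows was chr10:20600001-20700000, with 18 of the regions among 33 demethylated pH 5.5 common peaks.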

How the data were processed

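MSU v7.0 was the rice genome to which the authors mapped the reads. For peak calling they pooled the IP libraries, used paired-end fragments and kept peaks under a q-value of 0.05, once against input and once against IgG. The submitters' processing notes name BWA, SAMtools, Picard and MACS2 2.1.1. In the 10 deposited lists, every peak has a position, a summit offset, a fold (IP pileup as a ratio to the local control level), a −log10 p-value and a −log10 q-value from the authors' caller. No list holds values per replicate. A hypermethylated pH 7.0 list is named in the labels of both demethylated pH 7.0 IP libraries. The list used for that condition is the one that carries its name, which the label of the demethylated input also gives.

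The members, lists and measures were chosen with earlier results of these data known. Common peaks and union regions were formed with Python 3.11.15, pandas 2.3.3 and numpy 2.4.6 at an overlap of at least 1 bp. Summit reads, local control level and the scaling of the IP were solved from the deposited fold and −log10 p-value under the caller's Poisson model (scipy 1.17.1), for peaks with a −log10 p-value up to 250. Background coverage is the 5th percentile of the control level in a list. Overlaps and the solver were tested on simulated data. Shares have 95% Wilson intervals, which cover counting error only. The end of the last peak of a chromosome over all lists stood for the chromosome's end. The named regions are the 10 of highest −log10 q-value against input, the 5 with the highest fold, the 5 widest, the 5 with the lowest −log10 q-value, the 5 windows of 1 Mb with the most regions and the chromosomes with the highest and lowest share. The windows of lowest share and of lowest median fold, the longest row and the densest 100 kb window were added after their values were seen. Sequence, GC content, C-tracts and genes of the regions were not analysed here although planned, as they need the MSU v7.0 sequence and gene models, which were not used here.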

Additional observations from a re-analysis of the deposited data

How the results depend on the processing

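Of 71 values recomputed for 10 results, 33 stayed within 1.5 times (counts) or within the 95% interval of the reported value, and 38 moved. Only the outer minus inner share has a sign that could reverse, and it did not. The number of regions moved to 36386 with all input-called peaks, 9314 with the top 50000 common peaks of each condition and 9806 where the other lists had to hold no peak. It was 11470 with all IgG-called peaks.

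The percent of common peaks in such regions was 29.8 with all input-called peaks, 14.2 with all IgG-called peaks, 19.1 at a −log10 q-value of at least 5, 21.5 with an overlap of 50% of the shorter peak, 14.8 with peaks up to 500 bp apart joined, 18.6 with the top peaks and 12.9 with no peak in another list. Of alternatives chosen after seeing the data, it was 14.6 with CK given by its IgG-called list and 21.5 without CK. It was 22.2 with the called peaks scaled to the lowest coverage and 29.1 with 75 bp on each side of the summit.

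In the same order of settings, the median width moved to 184, 162, 241, 234, 287 (top peaks), 223 (no peak in another list), 224 (CK by IgG) and 236 bp (lowest coverage), and the median fold to 3.11, 3.39, 4.58, 5.43 (top peaks), 3.78 (no peak in another list), 3.79 (CK by IgG) and 4.17 (75 bp around the summit). With all IgG-called peaks, 162 bp is the IgG-called width and 3.39 the fold against IgG, so the measure changed as well. For the regions themselves, the matching IgG-called peaks had medians of 169 bp and 3.58. The ratio of the highest to the lowest chromosome moved to 1.33 with all input-called peaks and 1.23 with 75 bp around the summit. The outer minus inner share, 4.66 percentage points, stayed positive and moved to 2.99 with all IgG-called peaks, 3.51 with joined peaks, 2.87 with no peak in another list and 3.28 with CK by IgG. In windows of 100 kb with at least 20 peaks, the highest share was 59.1% and the lowest 0%. Without both CK lists, 81.0% of the regions held no peak of another list. The cause of these moves was not tested.

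No paired analysis was possible because each list comes from IP libraries merged before peak calling, and no replicate was left out, since the lists hold none. GC content, C-tract and gene alternatives were not run. With 1 merged library a condition, the differences have no replicate check. A missing call means only that no peak was detected at the depth and narrowest peak width of that list, which differed between conditions.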

Other observations

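Demethylated DNA at pH 5.5 also had regions that it shared with exactly 1 other condition. Of the 113086 union regions, it shared 3251 with hypermethylated pH 7.0 alone, 2551 with hypermethylated pH 5.5, 1513 with demethylated pH 7.0 and 713 with CK. The most were with hypermethylated pH 7.0, and the same DNA at pH 7.0 gave fewer. The numbers of common peaks in the partners were 67787, 82718, 73109 and 55062 in the same order. CK was present at pH 7.0 only, and coverage and peak width differed between the lists. The part of these differences, and of pH and DNA treatment, in the numbers was not tested.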
